A study of Mus musculus with 13 samples.

Results

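RNA on the tagged ribosomes of cholinergic medial habenula neurons of Gpr151 knockout mice was compared with total RNA of unpurified medial habenula of mice with an intact Gpr151 gene. The 6 immunopurified (IP) libraries whose labels read Gpr151-KO::Chat-TRAP DW167 (numbers 683, 855, 1099, 1100, 1101 and 1102) were set against the single input library of Chat-TRAP DW167 mice (number 824), 7 of the 13 libraries in the series. The other 6 libraries were IP libraries of Chat-TRAP DW167 mice with intact Gpr151, called wild type here. All mice were adult, above 8 weeks of age, and every group, controls and input included, carried the Chat-TRAP DW167 transgene. Each library pooled tissue of 4 mice, apart from library 855 and the wild-type library 852, which pooled 3. In Chat-TRAP mice, regulatory sequence of the choline acetyltransferase gene drives a ribosomal protein tagged with GFP, so anti-GFP beads recover polysomes of cells in which that sequence is active. The precipitate can also hold RNA that stuck to the beads. Most names of the deposited tables mention saline, and that of the input saccharin as well, while the labels give no treatment, so the sources do not tell whether input and IP mice were treated alike. Since the knockout IP libraries differ from the input in genotype as well as in purification, the effects of the 2 cannot be told apart from these 7 libraries alone.

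The medial habenula is a small epithalamic nucleus whose axons reach the interpeduncular nucleus through the fasciculus retroflexus. Its ventral neurons make acetylcholine and also load glutamate into vesicles, and they hold some of the highest levels of nicotinic receptors of the α3, β4 and β3 kinds in the brain, which is why the pathway is studied in nicotine intake and withdrawal. Its dorsal neurons are known for substance P. Gpr151 encodes an orphan G protein-coupled receptor concentrated in habenular axons. Thalamus, hippocampus, choroid plexus, ependyma and fibre tracts border the nucleus, and a dissection can include any of them.

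The start regions of 5 genes with high IP-to-input ratios are shown because they belong to the cholinergic, nicotinic and peptide genes on which the results below turn: the choline acetyltransferase gene, which also lends its regulatory sequence to the transgene, the vesicular acetylcholine transporter gene nested in the same locus, the neighbouring genes of the α3 and β4 nicotinic subunits, and the neurokinin B precursor gene. Each is the 250 bases before the gene's start in RefSeq on GRCm38.p6, written 5′ to 3′ on the gene's strand, with CAGCTG, an E-box bound by helix-loop-helix factors such as NHLH2, in capitals.
Chat, chr14:32465910-32466159, minus strand: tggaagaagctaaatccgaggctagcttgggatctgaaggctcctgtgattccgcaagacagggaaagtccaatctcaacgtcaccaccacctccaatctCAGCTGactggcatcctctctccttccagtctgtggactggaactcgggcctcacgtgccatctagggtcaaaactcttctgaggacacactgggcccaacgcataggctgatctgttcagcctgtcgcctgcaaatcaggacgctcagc
Slc18a3, chr14:32464851-32465100, minus strand: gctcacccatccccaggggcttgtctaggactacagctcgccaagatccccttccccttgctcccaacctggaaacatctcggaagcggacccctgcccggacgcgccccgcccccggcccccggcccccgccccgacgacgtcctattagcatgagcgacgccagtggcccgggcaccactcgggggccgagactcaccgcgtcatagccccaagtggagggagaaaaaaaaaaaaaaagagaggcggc
Chrna3, chr9:55026563-55026812, minus strand: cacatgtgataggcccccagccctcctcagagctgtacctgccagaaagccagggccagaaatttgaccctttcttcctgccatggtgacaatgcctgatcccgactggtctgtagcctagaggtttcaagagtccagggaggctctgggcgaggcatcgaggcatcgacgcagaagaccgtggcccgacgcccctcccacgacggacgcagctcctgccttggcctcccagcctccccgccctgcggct
Chrnb4, chr9:55048545-55048794, minus strand: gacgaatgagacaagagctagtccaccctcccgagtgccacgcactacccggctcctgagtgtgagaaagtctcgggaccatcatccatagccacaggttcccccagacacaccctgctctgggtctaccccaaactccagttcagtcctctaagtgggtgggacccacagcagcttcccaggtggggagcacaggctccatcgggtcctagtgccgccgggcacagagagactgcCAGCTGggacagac
Tac2, chr10:127724228-127724477, plus strand: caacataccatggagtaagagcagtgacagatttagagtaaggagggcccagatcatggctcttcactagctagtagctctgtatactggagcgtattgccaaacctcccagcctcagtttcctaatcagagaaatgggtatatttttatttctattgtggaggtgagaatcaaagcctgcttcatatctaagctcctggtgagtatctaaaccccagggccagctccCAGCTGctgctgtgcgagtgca

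CAGCTG, which reads the same on both strands, stood 150 bases before the RefSeq start of Chat, 14 bases before that of Chrnb4 and 22 bases before that of Tac2. These letters were not in the windows of Slc18a3 and Chrna3. In the GENCODE M21 annotation Chrnb4 starts further upstream, at 55048779, so most of its window, the match included, lies within the annotated gene. The GENCODE M21 start of Chat, 32465989, also lies inside its window, but its match lies before that start. Over the 27022 RefSeq windows of this length, 12.8% held CAGCTG, against 11.5% of the 8724 windows of genes past the expression filter. It was in 16.3% of the 172 windows of genes enriched in every knockout library and free of exon overlap, and in 15.5% of the 283 windows of such depleted genes. Of the letters ATAATTAAT, bound by POU4F1, none was found on either strand in those 172 windows or in the 283 of depleted genes, against 0.259% of all windows and 0.0802% of those of genes past the filter. AAAGGTCA, bound by NR4A2, was in 0.581% of the 172 and 1.41% of the 283, against 1.32% of all windows and 0.676% of those of genes past the filter. Among enriched genes without exon overlap, others described below whose windows held CAGCTG were Pou4f1, Kcnip1, Kcng4, Prima1 and Prkcb. Matches in enriched genes with exon overlap are not listed here. A match describes letters in a window and is not a measured binding site.

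Gpr151 itself was measured first, since it checks the labels. With all 13 libraries scaled together, it stood at 57.0 CPM (read counts scaled to the size of the library) in the input. It was at 384, 400.4, 408, 512, 589.6 and 618 CPM in the wild-type IP libraries and at 120.2, 125, 128, 148, 202 and 217 CPM in the knockout IP libraries, so the genotypes did not overlap. The knockout level was lower by a log2 fold change of -1.64 (95% interval -2.02 to -1.25, n = 6 and 6, adjusted p = 0.00871, edgeR quasi-likelihood test with Benjamini-Hochberg adjustment). The call was lost with library 682, 852, 683 or 855 left out (adjusted p = 0.0775, 0.0675, 0.0778 and 0.0765 in edgeR's quasi-likelihood test) and in the later libraries alone (adjusted p = 0.419), while the fold change stayed between -1.77 and -1.53. The labels do not say which part of the gene the knockout allele lacks, so the remaining counts do not tell whether an intact transcript was left. Against the input, the remaining Gpr151 counts were still above 2 times in each knockout library, with a log2 ratio of 1.00 in the lowest library, a median of 1.25 and 1.91 in the highest. Rpl10a, the gene of the ribosomal protein that carries the tag in TRAP mice, was at 7.99 CPM in the input and between 3.26 and 14.2 CPM in the knockout libraries with these 7 libraries scaled alone, as in all that follows. Of its windows of 50 bases, 20.8% also occur in Rpl10a-ps1, and its exons overlap another gene, so that value is uncertain.

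With 1 input library there is no replicate on that side, so genes were sorted by a rule of size instead of a test. The ratio of each IP library to the input was taken on the log2 scale after 1 CPM was added to both, which understates the change of low genes, and a gene was called enriched when the IP level was at least 2 times the input in all 6 knockout libraries, or depleted when it was at most the inverse in all 6. Of 11265 genes with 5 CPM in the input or as the knockout mean, 477 were enriched, which is 4.23% of them, and 578 were depleted, which is 5.13%. These shares are the background for the list counts below. The median gene had a log2 ratio of 0.11. A gene that passed this filter through the input alone was more apt to be called depleted. One that passed through the knockout mean alone was more apt to be called enriched. Reads of overlapping genes are assigned differently where gene lists differ, and the input listed 37328 symbols against 32531 in libraries 683 and 855 and 24454 in the later 4. Among the 7034 genes whose exons overlap no other gene in GENCODE M21, 248 were enriched (3.53%) and 371 depleted (5.27%). Exon overlap is remarked on below for some genes, and a gene without the remark can have it as well.

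The pools differed in how far they departed from the input. Library 683 had 1786 genes at 2 times the input or more and 2196 at its inverse or less, while library 1099 had 927 and 1149, and library 1102 had 1257 and 1201. Of the 264 genes that passed the higher side in exactly 5 pools, 205 missed it in library 1099, and of the 355 on the lower side, 269 missed it there. Library 1099 had the highest share of alignments outside genes, 16.6% against 9.63% to 10.7% in the other 5. Without libraries 1099 and 1102, chosen after their values were seen, 784 genes were enriched and 1304 depleted. The part of the reads outside genes in this was not tested.

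**Figure D1:**
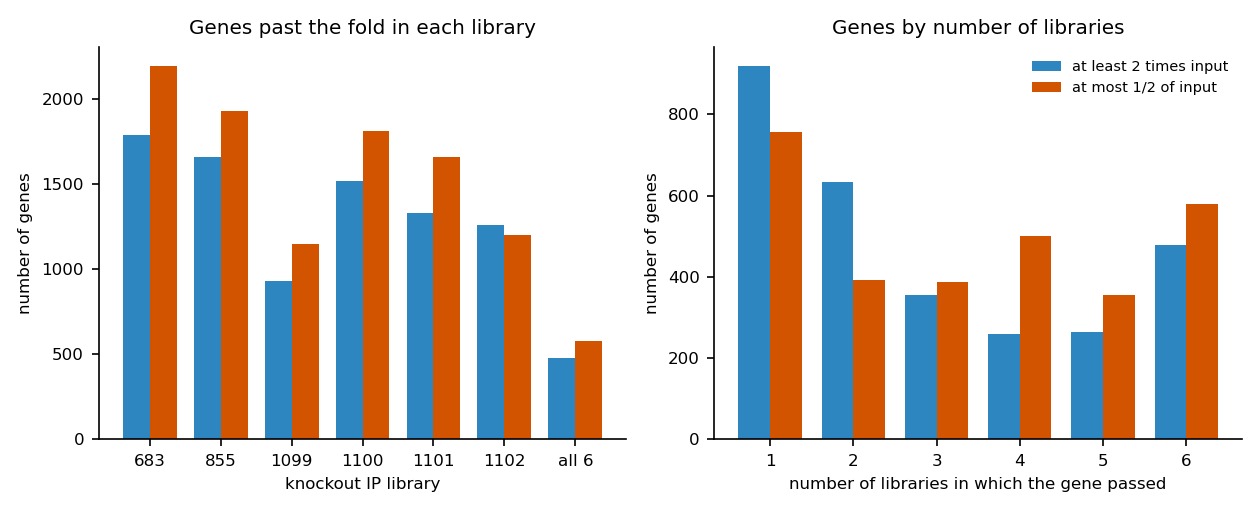
Numbers of genes at least 2 times the input (blue) or at most its inverse (orange), on the left in each of the 6 knockout IP libraries and in all 6 together, on the right by the number of libraries in which a gene passed. Library 1099 has the fewest on both sides (927 and 1149), and 477 and 578 genes passed in all 6.

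All 5 markers of cholinergic medial habenula neurons were enriched in every knockout pool, so the label held against them. Chat, the enzyme that makes acetylcholine (chr14:32408203-32465989, minus strand, GENCODE M21 on GRCm38), was at 12.6 CPM in the input and at 82.4 CPM in library 683, 122 in 855, 71.2 in 1099, 100.2 in 1100, 137 in 1101 and 92.8 in 1102. Its log2 ratios ran from 2.41 to 3.35. Slc18a3, the transporter that fills vesicles with acetylcholine (chr14:32462438-32464850, within the span of Chat on the same strand, with no shared exon), was at 37.7 CPM in the input and at 606, 1132, 213, 634, 436 and 294 CPM in the same order. Its pools were the most spread of the 5, with log2 ratios of 2.47 in library 1099 and 4.87 in library 855. Slc5a7, which takes choline back into the terminal (chr17:54273590-54299034, minus strand), was at 24.3 CPM in the input and at 276, 346, 223, 482, 262 and 218 CPM in the pools, a median log2 ratio of 3.41. Prima1, the membrane anchor of acetylcholinesterase, was also enriched, from 4.69 CPM to between 25.9 and 92.7 CPM. It passed the filter through the knockout mean alone, which favours an enriched call. Acetylcholinesterase itself was not enriched: Ache was at 27.5 CPM in the input and at 22.2 to 49.2 CPM in the pools. Exons of Ache overlap another gene, so that value is uncertain. In all, 4 of the 7 acetylcholine genes past the filter were enriched and 2 depleted, the depleted ones being the choline transporter gene Slc44a1 and the choline kinase gene Chka, both of which overlap exons of another gene. The list's median log2 ratio was 2.85, from 2.24 to 3.35 over the pools.

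Among nicotinic receptor subunits, 3 of the 6 past the filter were enriched and none depleted. Chrna3, the α3 subunit (chr9:55010111-55026562, minus strand), was at 85.4 CPM in the input and at 1548, 1717, 825, 1821, 1214 and 1001 CPM in libraries 683, 855, 1099, 1100, 1101 and 1102. Chrnb4, the β4 subunit (chr9:55028154-55048779, minus strand), was at 94.0 CPM in the input and at 1316, 1692, 711, 1626, 1021 and 794 CPM in the pools. Chrnb3, the β3 subunit (chr8:27368711-27399730, plus strand), was at 36.8 CPM in the input and at 363, 543, 302, 598, 328 and 284 CPM. The median log2 ratios were 3.99, 3.61 and 3.20, and each pool lay far above the input for all of them. The subunits that are widespread in the brain behaved otherwise. Chrna4 (α4) was at 225 CPM in the input and 221 to 353 CPM in the pools, a median log2 ratio of 0.20. Chrnb2 (β2), which has exon overlap, had a median log2 ratio of 0.87 with 1 pool above the 2-fold limit. Chrna5 and Chrna6 stayed below the filter, at 0.421 and 0.781 CPM in the input, and reached 2.91 to 6.37 CPM and 1.95 to 4.43 CPM in the pools.

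Per kilobase of exon, β4 and α3 were the most abundant subunits in the knockout IP, at 320.5 ± 112 and 257 ± 76.5 CPM per kb (SD, n = 6), which overlap within their spread. Chrnb3 at 63.3 ± 20.97 and Chrna4 at 53.0 ± 9.02 CPM per kb came next and also overlapped each other, followed by Chrnb2 at 13.9 ± 1.97 CPM per kb. In the input the order was different, with Chrna4 first at 44.9 CPM per kb, ahead of Chrnb4 at 25.2 and Chrna3 at 16.2 CPM per kb.

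**Figure D2:**
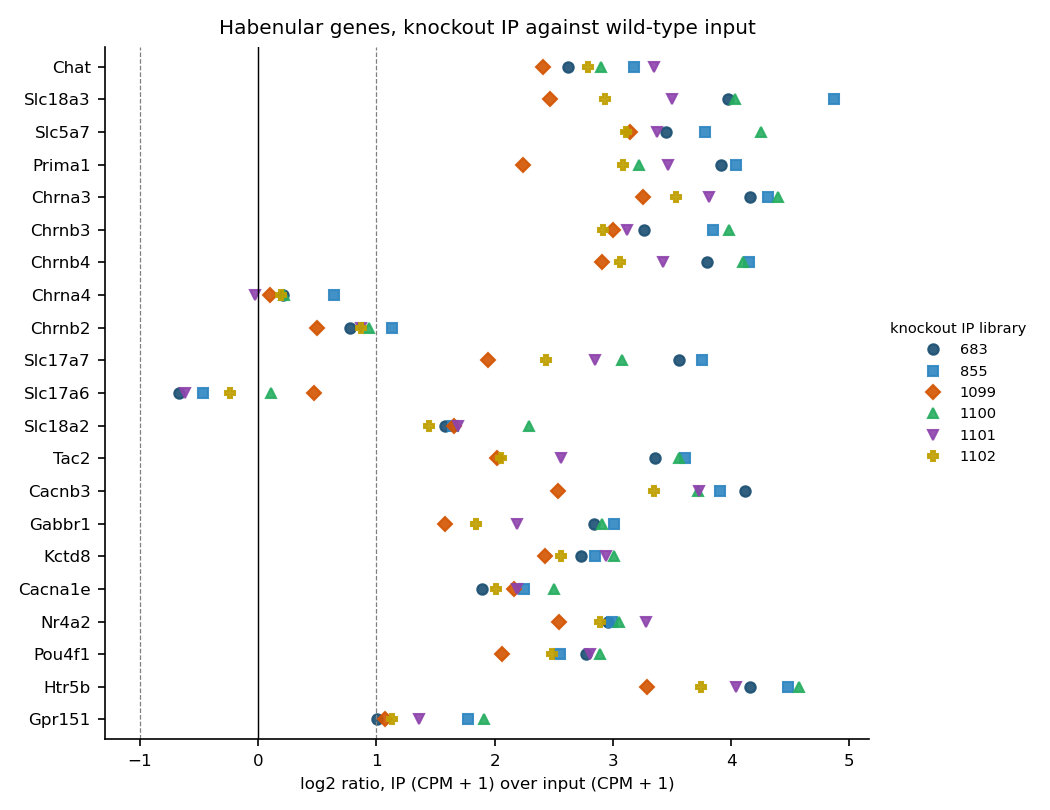
Log2 ratio of each knockout IP library to the input, after 1 CPM was added to both, for cholinergic, nicotinic, vesicular transporter, GABA-B pathway and other habenular genes, 1 symbol per library, with dashed lines at 2 times and at its inverse. The 5 markers lie above the 2-fold line in all pools, Chrna4 and Slc17a6 lie around 0, and Gpr151 sits at 1.00 to 1.91.

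Of 5 vesicular transmitter transporters past the filter, 3 were enriched, Slc18a3 (above), Slc17a7 and Slc18a2, and none was depleted. Slc17a7 (VGLUT1), one of the vesicular glutamate transporters, went from 74.4 CPM to 889, 1017, 288, 634, 542 and 406 CPM, a median log2 ratio of 2.96. Slc17a6 (VGLUT2), the form shared with thalamus and lateral habenula, was at 518 CPM in the input and 326 to 717 CPM in the pools, with ratios on both sides of 0. Slc18a2, the vesicular monoamine transporter, was enriched with a median log2 ratio of 1.65, and its exons overlap another gene. Slc32a1, the vesicular GABA transporter, was at 11.7 CPM in the input and 1.06 to 6.002 CPM in the pools, with exon overlap.

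Medial habenula genes outside the cholinergic set showed the same direction, with 13 of 17 enriched and none depleted, and a list median of 2.67 (1.74 in library 1099 to 2.87 in library 855). Synpr, the vesicle protein synaptoporin, was at 62.0 CPM in the input and at 1033, 1103, 793, 2419, 898 and 667 CPM in the pools, with library 1100 the highest. The transcription factor genes Nr4a2 (139 CPM to between 813 and 1359 CPM) and Pou4f1 (44.1 CPM to between 187 and 334 CPM) were tighter, with log2 ratios of 2.54 to 3.28 and 2.06 to 2.89. Nhlh2 and Irx2, 2 further transcription factor genes, had median log2 ratios of 1.82 and 2.86. Kcnip1, which modulates A-type potassium channels, had a median of 3.51. Lrrc55, an auxiliary subunit of BK channels, had a median of 3.33, and its exons overlap those of another gene. The 4 list members that were not called were Lmo3, which missed the limit in library 1099 (log2 ratio 0.91), and Fxyd7, Spon1 and Calb2, whose medians were -1.30, -0.44 and -0.51.

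Genes of dorsal medial habenula subregions were not called in either direction, 0 of 7. Over all genes 4.23% were enriched and 5.13% depleted, so 0 calls in so short a list is near those shares. Tac1, the substance P precursor of dorsal neurons, was at 22.8 CPM in the input and at 105, 73.9, 28.3, 75.0, 41.1 and 29.5 CPM in the pools, all above the input but below 2 times in 3 of them. Calb1 was lower in every pool, from 159 CPM to between 34.2 and 94.0 CPM, and missed the limit in library 1099. Tac2, the neurokinin B precursor, was enriched, from 90.3 CPM to 937, 1114, 370.0, 1074, 539 and 378 CPM. Among 12 neuropeptide genes past the filter it was the single enriched one, while Pnoc, Penk and Gal were depleted. These depleted genes passed the filter through the input alone, and Penk also has exon overlap. Pnoc (nociceptin precursor) was at 10.6 CPM in the input and at 0.142 to 1.94 CPM in the pools. Per kilobase, Tac2 reached 534 ± 251 CPM per kb in the knockout IP (SD, n = 6), against 17.3 ± 9.02 for Tac1.

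The GABA-B receptor of medial habenula terminals is known for raising transmitter release, together with the calcium channel CaV2.3 and auxiliary KCTD proteins. Of 16 genes of this group past the filter, 7 were enriched and none depleted, beside 4.23% and 5.13% of all genes. Gabbr1 had the highest CPM of this group, at 1041 CPM in the input and at 7464, 8397, 3120.3, 7833, 4747 and 3741 CPM in the pools. Its partner subunit Gabbr2 was also higher in every pool, at 888 to 1904 CPM against 679 CPM, but missed 2 times in libraries 1099 and 1102. Cacna1e, which encodes the pore of CaV2.3, was at 224 CPM in the input and at 834, 1071, 1011, 1273, 1024 and 907 CPM in the pools, a narrow range of log2 ratios from 1.89 to 2.50. Cacnb3, a calcium channel β subunit, went from 147 CPM to between 856 and 2562 CPM, a median log2 ratio of 3.72. Kctd8, Kctd12 and Kctd12b were enriched (medians 2.79, 1.79 and 2.42), whereas Kctd16 had a median of -1.81. The pores of the P/Q-type and N-type channels, Cacna1a and Cacna1b, had medians of -1.22 and -1.51 and were not depleted in every pool. The seventh enriched member was Cacna2d2, an auxiliary calcium channel subunit, with a median of 2.09. Kctd8, Kctd12, Kctd16, Cacna1a and Cacna2d2 overlap exons of another gene.

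Potassium channel and pacemaker genes differed from the input in both directions, with 5 of 32 enriched and 3 depleted. Beside them stood 4.23% and 5.13% of all genes, and the list median was -0.72. The enriched members included Kcnma1, the BK channel (335 CPM to between 1469 and 2532 CPM), Kcnd2, an A-type channel, Kcng4 and Kcnip1. Of these, Kcnma1 has exon overlap. Kcnq3, an M-channel subunit, was depleted more than the other members, from 459.8 CPM to 6.08, 6.73, 43.6, 9.78, 16.2 and 34.6 CPM, a median log2 ratio of -5.08. Kcnip4 and Kcnh7 were the other depleted members, both with exon overlap. Of the pacemaker channels, Hcn4 was higher in every pool (31.7 CPM against 62.6 to 108 CPM) but just under 2 times in the lowest, and Hcn2 had a median of -1.03.

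Release genes were selective as well: 6 of 35 were enriched, 1 was depleted, and the list median was 0.13. Over all genes the shares were 4.23% and 5.13%. The enriched release genes were Synpr, Syn3, Syt9, Cadps2, Syt6 and Sv2b, of which Syn3, Syt6 and Sv2b have exon overlap. Syt9, a fast calcium sensor of release, was at 232 CPM in the input and at 997 to 2471 CPM in the pools, and Cadps2, a dense-core vesicle priming factor, at 143 against 761 to 1290.1 CPM. The general vesicle genes Snap25, Syt1 and Sv2a had medians of -0.20, -0.45 and 0.44.

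Receptor genes for inhibition and excitation were depleted more often than enriched. Over all genes, 4.23% were enriched and 5.13% depleted. None of 16 GABA-A and glycine receptor subunits was enriched and 5 were depleted, namely Gabra3, Gabra4, Gabrb1, Gabrg3 and Glra2, and the list median was -1.95 (-2.90 to -0.53 over the pools). Gabrb1, the β1 subunit, was at 388 CPM in the input and at 2.22, 5.63, 36.9, 6.36, 10.8 and 23.5 CPM, with exon overlap. Gabra4 also has exon overlap. Of 22 ionotropic and metabotropic glutamate receptor genes, 1 was enriched and 3 were depleted, Grin2a, Grin2b and Grik4. Grin2b and Grik4 have exon overlap, and Grik4 passed the filter through the input alone, which favours a depleted call. Grin2a, an NMDA receptor subunit, was at 204 CPM in the input and at 13.3, 18.5, 29.6, 27.6, 23.9 and 30.7 CPM, so its pools lay close together. Gria1, an AMPA receptor subunit, was enriched by the narrowest of margins, with a lowest log2 ratio of 1.00 and a median of 1.10.

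**Figure D3:**
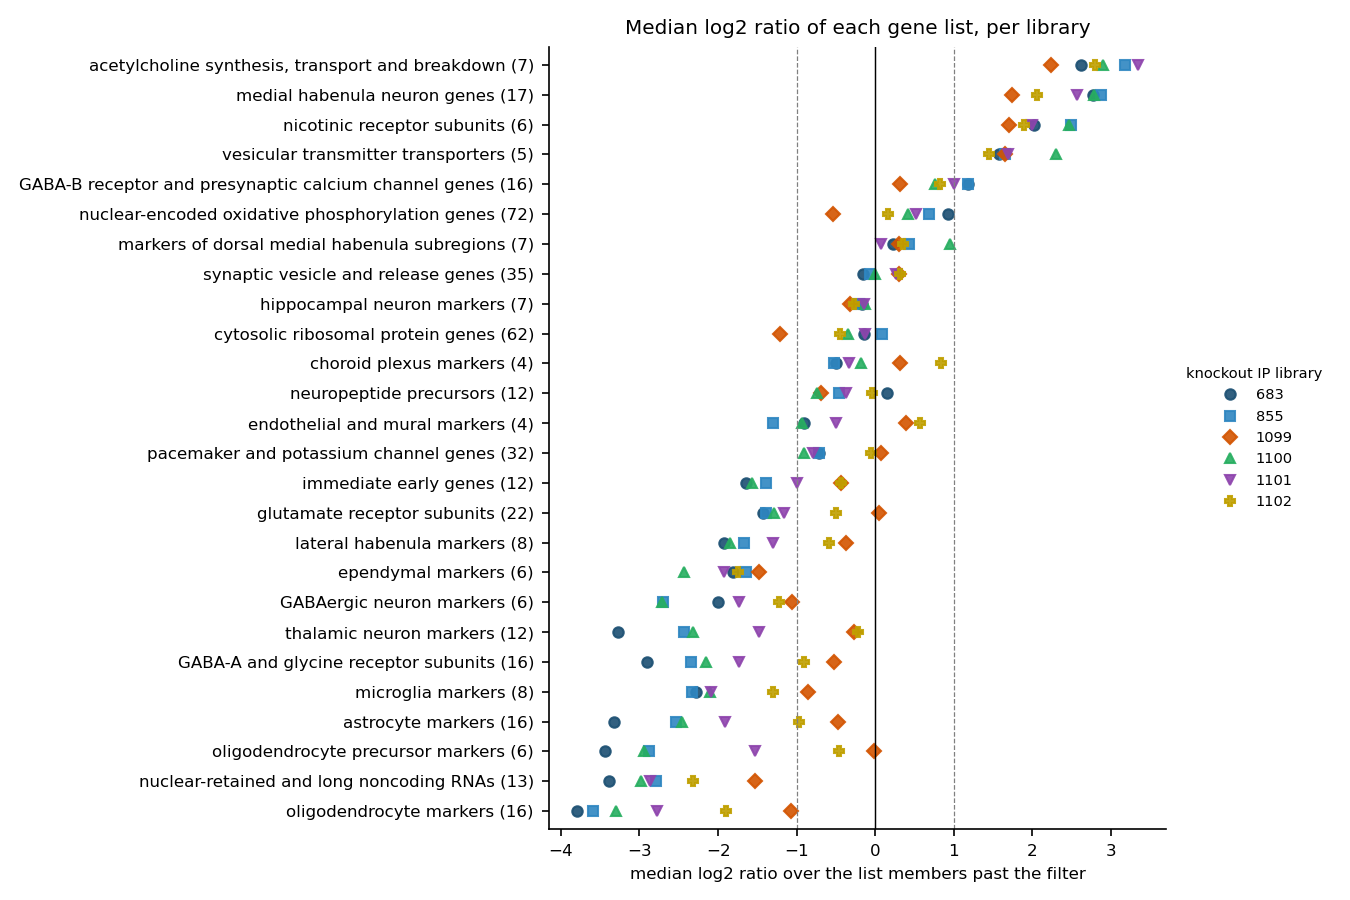
Median log2 ratio to the input over the members of each gene list past the filter (their number in brackets), 1 symbol per knockout IP library, with dashed lines at 2 times and at its inverse. Acetylcholine, medial habenula, nicotinic and vesicular transporter lists lie above 1 in all 6 pools, and for the glial lists library 1099 is the nearest to 0.

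Oligodendrocyte genes were the most depleted glial group: 9 of 16 were depleted in every pool, none was enriched, and the list median was -3.04. Their summed level was 3231 CPM in the input and 235, 324, 1764, 314, 666 and 1319.7 CPM in libraries 683, 855, 1099, 1100, 1101 and 1102. Opalin, a myelin membrane protein gene, was at 29.7 CPM in the input and at 1.24, 1.56, 3.81, 1.13, 1.24 and 1.60 CPM. It passed the filter through the input alone, which favours a depleted call. Mobp, Mog and Gjc3 had medians of -3.50, -3.41 and -3.47, and exons of Mobp overlap another gene. Mbp, myelin basic protein, was not called, because it stood at 415 CPM in library 1099 and 417 CPM in library 1102 against 579 CPM in the input.

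Astrocyte genes were lower than the input in most pools. In all pools 3 of 16 were depleted, S100b, Ntsr2 and Fgfr3, beside 5.13% of all genes. Fgfr3 has exon overlap and passed the filter through the input alone, which favours a depleted call. The summed level of the list was 3077 CPM in the input and 388, 505, 2866, 559, 994 and 2022 CPM in the pools. S100b was at 79.0 CPM in the input and at 2.45, 3.61, 20.9, 6.48, 7.19 and 12.7 CPM. Aqp4, the water channel of astrocyte endfeet, was at 86.6 CPM in the input and at 4.30, 11.1, 72.6, 10.2, 13.1 and 28.5 CPM, and missed the limit in library 1099. The glutamate transporter gene Slc1a3 was at 68.7 CPM in library 1099, above the 42.0 CPM of the input, and at 5.24 to 24.5 CPM in the other 5. The list median ran from -3.32 in library 683 to -0.48 in library 1099.

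Other cells of the dissection gave a mixed picture. Of 8 microglial genes past the filter 4 were depleted, of 6 oligodendrocyte precursor genes 2, and of 6 ependymal genes 3, beside 5.13% of all genes. The depleted microglial and ependymal genes, at 5.67 to 13.7 CPM in the input, passed the filter through the input alone, which favours a depleted call. With a filter of 20 CPM the microglial list median was -0.74 instead of -2.10. The microglial gene C1qb was at 6.41 CPM in the input and at 0.310 to 1.63 CPM in the pools. The ependymal list had medians from -2.44 to -1.48 over the pools. None of the 4 endothelial and mural genes past the filter was called, and the summed level of all 15 on that list, 84.6 CPM in the input, was 33.5, 35.0, 117, 44.6, 59.99 and 139 CPM in the pools. Of choroid plexus genes, Ttr was at 12.2 CPM in the input and at 0.460 to 19.99 CPM, with library 1102 the highest, whereas Sostdc1 was enriched in every pool, from 6.87 CPM to between 33.3 and 88.3 CPM. No marker of these glial and vascular lists was at 0 in all 6 knockout libraries. Because the IP selects RNA by tagged ribosomes, these ratios measure neither the number of such cells nor their RNA per cell. How much of the remaining signal was RNA that stuck to the beads was not tested.

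**Figure D4:**
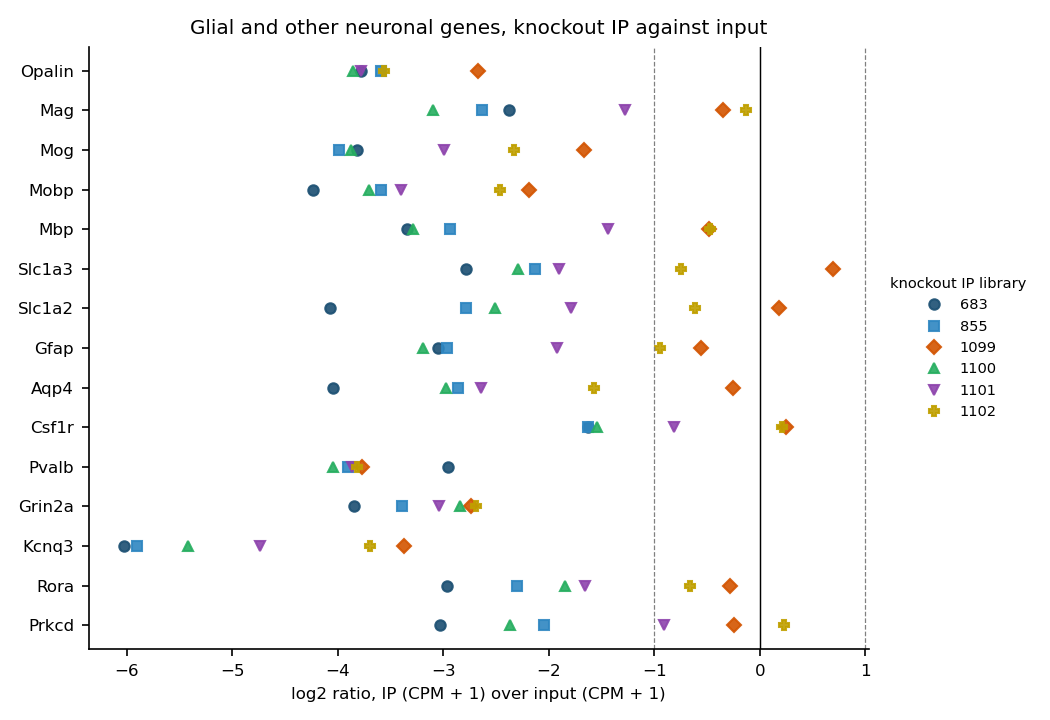
Log2 ratio of each knockout IP library to the input for glial and other neuronal genes, 1 symbol per library, with dashed lines at 2 times and at its inverse. Opalin, Mog, Mobp, Pvalb, Grin2a and Kcnq3 lie at or below the lower line in all 6 pools, whereas Mbp, Slc1a3, Aqp4 and Prkcd lie above it in library 1099.

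Genes of neurons in neighbouring regions were called in both directions, beside 4.23% of all genes enriched and 5.13% depleted. Thalamic genes had a list median of -1.90, and 3 of 12 were depleted in every pool, Tnnt1, Shox2 and Rgs16. Shox2 and Rgs16 have exon overlap. The thalamic list summed to 4059 CPM in the input, to 732 to 1998 CPM in libraries 683, 855, 1100 and 1101, and to 3813 and 3823 CPM in libraries 1099 and 1102. Prkcd, a protein kinase C gene of thalamic relay neurons, was at 301 CPM in the input and at 35.9, 72.1, 253, 57.4, 160.0 and 352 CPM. Pvalb, of parvalbumin neurons, was depleted in every pool, from 38.3 CPM to 4.08, 1.63, 1.87, 1.37, 1.70 and 1.79 CPM, with library 683 apart from the others. It passed the filter through the input alone, which favours a depleted call. Gad1 and Gad2, which make GABA, were lower in all pools (medians -1.31 and -2.24), but Gad1 missed the limit in libraries 1099, 1101 and 1102 and Gad2 in libraries 1099 and 1102. Among 8 lateral habenula genes, Gap43, a growth cone protein, was depleted (511 CPM to between 45.8 and 126 CPM) and the serotonin receptor gene Htr5b enriched. Htr5b was at 19.5 CPM in the input and at 366, 456, 199, 488, 336 and 275 CPM, one of the highest ratios of any gene without exon overlap, so it did not go with the other genes of that list. Of 7 hippocampal genes, Fibcd1 was enriched (median 2.92) and Bok depleted (median -2.34).

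Among all genes free of exon overlap, the 20 with the highest lowest ratio included Synpr, Htr5b, Chrna3, Slc5a7, Chrnb3, Chrnb4, Kcnip1 and Nr4a2. The others included 2 protein kinase C genes. Prkcq was at 54.6 CPM in the input and at 523 to 807 CPM, and Prkcb at 164 and 1114 to 1727 CPM, with the ratio of library 1099 inside the range of the other pools for both. Ano1, a calcium-activated chloride channel, had a median log2 ratio of 2.84, Syt15, a synaptotagmin, 3.95, Neurod2, a neuronal transcription factor, 3.56, and Tspan18, a tetraspanin, 3.88. Pm20d2 was at 1.72 CPM in the input and at 24.6 to 28.5 CPM, the tightest of these pools. It passed the filter through the knockout mean alone, which favours an enriched call. On the depleted side stood Rims3 and Rims4, small active-zone proteins, at 338 and 19.9 CPM in the input and 7.34 to 19.6 and 0.815 to 1.504 CPM in the pools, along with Caln1, a neuronal calcium-binding protein (median -4.32), and Fads6 (median -4.73). Eno1, Ubb and Rpl26 were also there, at 113, 316 and 42.3 CPM in the input and at most 1.21, 12.4 and 0.673 CPM in the pools. Of their windows of 50 bases, 26.0%, 48.1% and 22.7% occur in other genes' transcripts, so these values are uncertain. Among these depleted genes, Rims4, Caln1, Fads6, Eno1 and Rpl26 passed the filter through the input alone, which favours a depleted call.

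The most extreme gene on each side had exons that overlap a neighbour, as did all 10 of the most enriched genes and 6 of the 10 most depleted. Gnas was at 18.5 CPM in the input and at 2342 to 2996 CPM in the pools, and Snrpn at 648 CPM in the input and 1.38 to 2.96 CPM. Gnas shares exons with Gm20721 and Snrpn with Snurf. The share of alignments left ambiguous between genes was 3.98% for the input and between 0.581% and 1.36% for the knockout pools, so such values are uncertain. The 5 genes with the largest spread between pools also had exon overlap. Among them, Rnasek was at 0.0247 and 0 CPM in libraries 683 and 855 and at 228 to 569 CPM in the later 4, and Adnp at 256 and 277 CPM against 0.141 to 0.682 CPM, so both split the pools as the symbol lists do. The same split occurred in genes without exon overlap: Atp6v0c was at 62.3 and 133 CPM in libraries 683 and 855 against 1.56 to 3.79 CPM in the later 4, and Acvr2b at 2.99 and 3.79 CPM against 68.0 to 82.0 CPM. Akr1b3 and Amd1 were at 11.4 to 13.7 CPM in libraries 683 and 855 and at most 0.0478 CPM in the later 4. Counted in windows as for Eno1 above, 78.1% of Amd1, 13.6% of Akr1b3 and 10.8% of Atp6v0c also occur in other genes' transcripts. The values of these genes are therefore uncertain. For Acvr2b that share was 0%.

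Long noncoding RNAs were depleted more often than protein-coding genes, 42 of 201 (20.9%) against 532 of 11032 (4.82%). Without exon overlap the shares were 15 of 85 (17.6%) and 355 of 6943 (5.11%). Of 13 noncoding genes listed for nuclear retention or imprinting, 9 were depleted. Malat1, a nuclear speckle RNA, was at 6515 CPM in the input and at 250.3, 427, 2674, 588, 492 and 666 CPM, and Meg3 at 3129.8 CPM and at 187, 177, 1087, 263, 278 and 422 CPM, with library 1099 the highest for both. Of these 13, 12 overlap exons of another gene. The exception, Peg13, was higher in all pools, at 309 CPM in the input and 364 to 548 CPM, a median log2 ratio of 0.74.

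Immediate early genes, which neurons switch on after activity, were not called in either direction (0 of 12). That is near the shares over all genes, 4.23% enriched and 5.13% depleted. Medians were below -1 for 7 of them, among them Fos at 46.7 CPM in the input and 6.50 to 39.8 CPM in the pools. Oxidative phosphorylation genes had a list median of 0.47 with 0 of 72 called, and cytosolic ribosomal protein genes -0.24 with 1 enriched and 2 depleted of 62.

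Whether IP levels differed by Gpr151 genotype was tested between the 6 knockout and 6 wild-type IP libraries, which leaves the shared input out. Over 15174 genes, edgeR's quasi-likelihood test with Benjamini-Hochberg adjustment called 2, Gpr151 and Oxt, which is 0.0132%. Of the 477 genes enriched in every knockout pool, Gpr151 was the single one called, and of the 575 depleted genes tested none was. At an unadjusted p under 0.05 stood 19 of the enriched genes (3.98%), 47 of the depleted genes (8.17%) and 473 of all genes tested (3.12%). DESeq2 called 11 genes, among them Pnoc and Lemd1 of the depleted set and Gpr151 of the enriched set. The median knockout-minus-wild-type log2 fold change was -0.12 over the enriched genes and 0.33 over the depleted ones, beside -0.0052 over all genes tested. For the markers the differences were small beside the enrichment, with 95% intervals of -0.74 to -0.05 for Chat, -0.82 to 0.29 for Slc18a3, -0.52 to 0.45 for Slc5a7, -0.40 to 0.35 for Chrna3 and -0.53 to 0.32 for Chrnb4, and an adjusted p of 0.999 for each in edgeR. With the 12 IP libraries scaled together, Chat stood at 98.7 ± 22.8 CPM in the knockout pools against 131 ± 34.9 CPM in the wild-type ones, and Chrna3 at 1326 ± 391 against 1344 ± 247 CPM (SD, n = 6 each). Oxt, the oxytocin precursor gene, was below the filter of the comparison with input. It was at 2.50 CPM in the input, 0.371 to 1.66 CPM in the knockout and 0.0244 to 0.0554 CPM in the wild-type IP libraries. The knockout libraries thus lay between wild type and input (log2 fold change from wild type 4.01, adjusted p = 0.0175 in edgeR). In the wild-type IP libraries 3 counts, which a count of 0 allows, are 0.0529 to 0.121 CPM. The wild-type values were near that floor, so the size of the Oxt fold change is uncertain. With 1 library left out at a time, the Oxt call was lost in 11 of 12 fits (adjusted p from 0.0314 to 0.163 in edgeR), and in the later libraries alone its adjusted p was 0.419, while the log2 fold change stayed between 3.75 and 4.17.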

How the data were processed

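The deposited values were raw read counts per gene symbol, 1 table per library, in which the authors gave HTSeq counts, per the submitters' processing notes. Those notes also name STAR 2.3.0e, DESeq2 and the mm10 build. Aligner settings, annotation and use of strand were not given in the sources used here. Libraries were made from single-primer amplified cDNA (Nugen Ovation), per the labels' protocols. Summary lines and a row named unknown (at most 4.76e-06% of gene counts) were left out, as were symbols not shared by all 13 tables, among them Rn45s, which held 6.18% to 12.3% of the gene counts of the knockout libraries.

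The gene counts of the knockout IP libraries ran from 32623249 to 64388596, and the input had 54701790. A count of 0 allows 3 counts, 0.0502 to 0.107 CPM in the knockout libraries, counting error only. Pairs of knockout libraries differed by more than counting error (chi-square divided by its degrees of freedom, 81.2 to 719).

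CPM was scaled by TMM (edgeR 4.0.16, R 4.3.3), with a filter of 5 CPM and a pseudocount of 1 CPM. Knockout and wild-type IP were compared with edgeR's robust quasi-likelihood test after filterByExpr, with the library set (682 and 683, 852 and 855, the later 8) as a term, two-sided, with Benjamini-Hochberg adjustment and a threshold of 0.05. Replicates were separate pools of mice. DESeq2 1.42.0 was an alternative. Scripts were tested on simulated data. Exon overlap came from GENCODE M21 (GRCm38). Promoter windows were those of RefSeq, with an entry for 8724 of 11265 symbols.

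Genes were named by rule: the markers, Gpr151 and Rpl10a, up to 4 called members per list with the largest ratios and any called against the list's direction, the 10 most extreme called genes each way and the 5 with the largest spread. The same ranks among genes without exon overlap, 20 each way, were added after seeing the data. Further list members are given for their function and were picked after their values were seen. The lists and members were chosen with earlier results of these data known. Some genes are not reported here.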

Additional observations from a re-analysis of the deposited data

Results flagged for a closer look

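In 1 of 26 gene lists and 6 of 127 named genes, 1 knockout library stood apart from the other 5, its gap to the nearest being above Dixon's 95% limit as a share of the whole range. Chance gives this in about 1 of 20 groups. Vesicular transmitter transporters had a median log2 ratio of 2.29 in library 1100, which is the value of Slc18a2 there (2.29). Pvalb was least depleted in library 683 (-2.95), and Opalin and Snhg11 were least depleted in library 1099 (-2.68 and -1.71). Rpl26 was at -4.70 in library 855, and Rab43 at 4.85 in library 1099, the lowest of its pools. Rab43 shares 74.5% of its windows of 50 bases with Gm45140.

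Gpr151 differed between knockout and wild-type IP, with a log2 fold change of -1.64.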

How the results depend on the processing

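Medians of lists near 0 (release, neuropeptide, choroid plexus) changed sign under some settings, as did the noncoding list without exon overlap. Dropping TMM shifted the median log2 ratio of all genes by -0.20, so ratios are relative to that scale, and gave medians of -0.084 for release genes and -0.38 for hippocampal genes. A pseudocount of 0.25 CPM gave -2.11 for ependymal genes. One of 5 CPM gave 350 depleted genes, -1.06 for microglial and -0.94 for ependymal genes. Libraries 683 and 855 alone gave 1330 enriched and 1788 depleted genes, with medians of -0.11 (release), 0.37 (neuropeptides) and -1.90 (endothelial and mural). Without libraries 1099 and 1102, chosen after seeing the data, 784 were enriched and 1304 depleted, and the release median was -0.078. Leaving out 1 knockout library at a time gave 482 to 682 enriched and 535 to 843 depleted genes, the highest of both without library 1099, and a neuropeptide median of -0.43 to -0.034. With no filter the medians were 0.12 (acetylcholine), 0.82 (nicotinic), 1.06 (vesicular transporters) and -1.31 (ependymal). A filter of 20 CPM gave 334 depleted genes and medians of 3.20 (nicotinic), 2.42 (vesicular transporters), 0.69 (neuropeptides), -0.74 (microglia) and 1.35 (choroid plexus). Genes without exon overlap numbered 248 enriched and 371 depleted, with medians of 3.53 (acetylcholine), 3.20 (nicotinic), 2.96 (vesicular transporters), 1.60 (GABA-B), -0.046 (hippocampal) and 0.74 (noncoding, Peg13 alone). A fold of 4 left 145 and 95 genes. Treating the lone input as if it varied like the pools, edgeR called 374 enriched and 357 depleted, sharing 368 and 329 with the rule of size, and DESeq2 called 720 and 625, sharing 477 and 462. The cause of these shifts was not tested, beyond fewer genes or libraries entering.

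Between genotypes, DESeq2 called 11 genes, the later libraries alone 0, and leaving out 1 library at a time 0 to 2. The library set was a term of this fit, and without it 2 genes were called. The labels give the genotypes no shared replicate number, so the later 8 libraries were not paired. The single input, with no replicate, limits every ratio, and genes below 5 CPM on both sides were left out.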
